A study of Mus musculus with 8 samples.

Results

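The genes described are the transcription factors of the epithelial to mesenchymal transition (EMT), the intermediate filament vimentin and the E- and N-cadherins. They were chosen by symbol, and 9 of the 10 listed symbols (Zeb1, Zeb2, Snai1, Snai2, Twist1, Prrx1, Vim, Cdh1 and Cdh2) were measured among 15047 genes of the pancreas of 8 male mice. Twist2 was not analysed here. Of these mice, 3 were C57BL/6 WT mice on low-fat diet (LFD), 3 were C57BL/6 WT mice on high-fat diet (HFD), and 2 were leptin-deficient C57BL/6J ob/ob mice on standard chow. All 3 groups were formed when the mice, ob/ob mice included, were 4 weeks old. LFD and HFD were then fed for 10 weeks, with fat supplying 60% of the HFD calories. By the methods of the study, all 8 pancreata carried orthotopically transplanted mT organoids, which derive from pancreatic tumors of genetically engineered mice. The sample labels do not mention this transplant. The RNA came from whole tissue, so host and graft cells cannot be told apart, nor can fewer cells of a type from less RNA per cell. The ob/ob mice differ from LFD mice in both genotype and chow, and these effects cannot be told apart.

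EMT is the process by which epithelial cells give up their cell junctions and take on the shape and motility of mesenchymal cells. ZEB, SNAIL and TWIST proteins bind E-box motifs in promoters, and the repression of E-cadherin by ZEB and SNAIL proteins is the best known step. E-cadherin joins epithelial cells at adherens junctions, whereas N-cadherin and vimentin mark mesenchymal cells. In a whole pancreas these genes are not restricted to carcinoma cells: fibroblasts and stellate cells express Vim, Zeb1, Zeb2, Twist1 and Prrx1, macrophages express Vim and Zeb2, and acinar and ductal cells express Cdh1.

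The genes lie on several chromosomes of GRCm38. Zeb2 spans chr2:44983632-45117395 on the reverse strand, Vim chr2:13573927-13582826, Snai1 chr2:167538195-167542814, Snai2 chr16:14705852-14709385, Twist1 chr12:33957671-33959829 and Cdh1 chr8:106603351-106670246 on the forward strand, and Prrx1 chr1:163245119-163313710 on the reverse strand. The promoter windows come from RefSeq on GRCm38.p6 and run from 250 bases before to 50 bases after the start site, 5′ to 3′. They matched 6 of the 10 listed symbols, and those of Snai1, Twist1 and Prrx1 are shown because each is a measured transcription factor with a single listed start. Capitals mark the E-box CANNTG, a palindromic pattern that reads the same on both strands.
Snai1, chr2:167537945-167538244, forward strand: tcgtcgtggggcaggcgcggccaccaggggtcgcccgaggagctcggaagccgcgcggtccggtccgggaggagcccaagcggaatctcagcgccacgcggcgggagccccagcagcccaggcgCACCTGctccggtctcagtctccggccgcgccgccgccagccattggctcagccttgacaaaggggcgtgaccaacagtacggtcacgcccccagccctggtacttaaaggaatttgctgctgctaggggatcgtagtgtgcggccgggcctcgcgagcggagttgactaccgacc
Twist1, chr12:33957421-33957720, forward strand: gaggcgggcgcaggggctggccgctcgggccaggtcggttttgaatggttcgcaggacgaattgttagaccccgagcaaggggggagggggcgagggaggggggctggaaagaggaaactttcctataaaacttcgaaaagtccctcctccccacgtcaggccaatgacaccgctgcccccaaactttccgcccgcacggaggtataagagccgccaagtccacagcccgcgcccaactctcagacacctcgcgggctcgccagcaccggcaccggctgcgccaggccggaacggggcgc
Prrx1, chr1:163313601-163313900, reverse strand: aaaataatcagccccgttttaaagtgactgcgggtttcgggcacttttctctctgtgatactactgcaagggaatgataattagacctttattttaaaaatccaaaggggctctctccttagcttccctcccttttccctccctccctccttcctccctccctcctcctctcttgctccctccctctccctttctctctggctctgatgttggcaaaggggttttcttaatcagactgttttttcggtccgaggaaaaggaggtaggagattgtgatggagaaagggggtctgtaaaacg
Of the 3 windows, that of Snai1 holds 1 E-box, CACCTG, whose first base lies 126 bases before the start. This form is the one known for binding ZEB and SNAIL proteins, and SNAIL binding to its own promoter is known from other systems. The windows of Twist1 and Prrx1 hold no match to CANNTG. Among all 32851 windows of this length, 72.3% held CANNTG and 20.2% held CACCTG on either strand, so the match in Snai1 is a description and not a site.

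The values are rlog values, which are read counts on the log2 scale after correction for library size, with differences shrunk where reads are few. Levels are therefore compared between mice and not between genes. Per mouse, the median over all genes lay between 7.09 and 7.25, and the depth is unknown because counts were not used here. Snai2, Snai1 and Twist1 lay below these medians, with mean rlog values of 2.80, 3.35 and 3.70. They were not part of the fit limited to genes with a mean rlog of at least 5. No pair of the 8 mice held the same values, with a Pearson r of 0.884 to 0.982 across genes. In LFD mice and in HFD replicate 1, the mean of 25 acinar enzymes and factors lay between 16.71 and 17.15, and in HFD replicate 3 and ob/ob replicate 2 it was 13.08 and 13.39. LFD replicate 2 had the highest lymphocyte mean, 5.68 against 3.68 to 4.67 in the other mice. With limma, 0 of 15047 genes had a Benjamini-Hochberg adjusted p under 0.05 in any comparison of groups. At an unadjusted p under 0.05, 2186 genes were higher and 1639 lower in obese than in LFD mice. After each mouse was centred on its median, the counts were 1823 and 2109.

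All 9 genes had a higher mean in HFD than in LFD mice, and 8 of 9, all but Cdh1, had a higher mean in ob/ob than in LFD mice. The median difference was 0.88 for HFD and 1.27 for ob/ob on the log2 scale, beside 0.0289 and 0.0392 over all genes. With limma, 0 of 9 genes had an adjusted p under 0.05 in either comparison, as for 0% of all genes. At an unadjusted p under 0.05, Zeb2 and Prrx1 were higher in HFD mice, 2 of 9 genes beside 11.5% of all genes. By the same measure, ob/ob mice had higher values of Zeb2, Snai2, Twist1, Prrx1, Vim and Cdh2, 6 of 9 beside 11.6% of all genes. In HFD mice, 4 of 9 genes (Zeb2, Twist1, Prrx1 and Cdh1) had every mouse above every LFD mouse, beside 12.9% of all genes. In ob/ob mice the same held for the 6 genes just named, beside 24.1% of all genes. Both comparisons use the same 3 LFD mice, so they are not independent of each other.

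**Figure D1:**
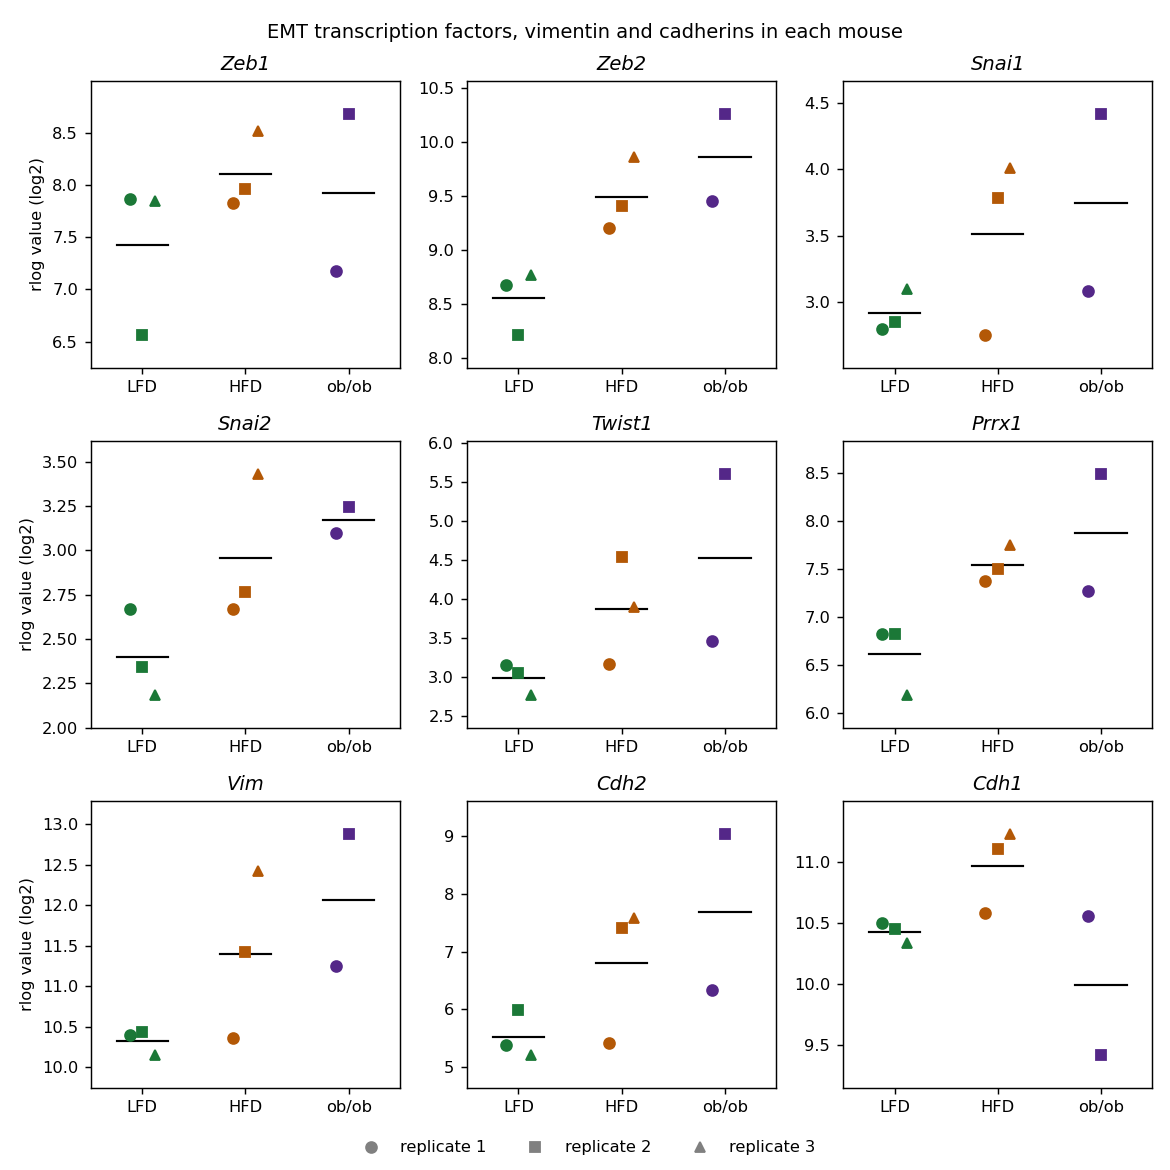
The rlog value (log2) of each of the 9 genes in each mouse, by group, with the replicate number as the symbol and the group mean as a line; each panel has its own vertical axis, which does not start at 0. The values of ob/ob replicate 2 are the highest of the 8 mice for 7 genes and the lowest for Cdh1.

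When both obese models were weighted equally and set against LFD mice, the median difference of the 9 genes was 1.1, beside 0.0411 over all genes. The adjusted p from limma was under 0.05 for 0 of 9 genes and 0% of all genes. Zeb2, Snai2, Twist1, Prrx1, Vim and Cdh2 had an unadjusted p under 0.05, 6 of 9 beside 14.5% of all genes. For Zeb2, Twist1 and Prrx1, all 5 obese mice lay above all 3 LFD mice, 3 of 9 beside 9.4% of all genes. Leaving out 1 mouse changed these counts. Where an ob/ob mouse is left out, here and in what follows, the lone ob/ob mouse is assumed to vary like the mice of the other groups. Without HFD replicate 1, the adjusted p was under 0.05 for Zeb2 and Vim in HFD mice, and for Zeb2, Prrx1, Vim and Cdh2 in obese mice, but then so it was for 2812 and 3326 of all genes. Without ob/ob replicate 1 it was under 0.05 for Zeb2 and Prrx1 in obese mice, and for 476 of all genes. Without ob/ob replicate 2, the differences of the 6 genes just named were 0.47 to 0.93 in ob/ob mice, against 0.77 to 2.16 with all mice. The median over all genes was then 0.0052, against 0.0392. At an unadjusted p under 0.05, the count without LFD replicate 3 was 2 in ob/ob mice and 2 in obese mice. Without HFD replicate 3 it was 3 in obese mice, where 1854 of all genes were higher. The count in HFD mice was 1 without LFD replicate 3 or HFD replicate 3 and 6 without HFD replicate 1. In these fits 981, 1036 and 2984 of all genes were higher in HFD mice, against 1728 with all mice. Without LFD replicate 3, 1055 of all genes were higher in ob/ob mice and 1270 in obese mice, against 1751 and 2186 with all mice.

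Of the ZEB genes, Zeb2 had the more separate groups. The rlog values of Zeb2, a zinc finger repressor of epithelial genes that macrophages also use, were 8.68, 8.21 and 8.76 in LFD mice, 9.20, 9.41 and 9.86 in HFD mice, and 9.45 and 10.26 in ob/ob mice. Every obese mouse lay above every LFD mouse, and HFD and ob/ob values overlapped. The difference from LFD was 0.94 ± 0.27 (SE) in HFD mice (limma, adjusted p = 0.181) and 1.30 ± 0.30 in ob/ob mice (limma, adjusted p = 0.168), or 1.91- and 2.47-fold on the rlog scale. For both models together it was 1.12 ± 0.24 (limma, adjusted p = 0.0954).

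Zeb1, the paralogue known for its loop with the miR-200 family, was less separate. Its values were 7.86, 6.57 and 7.84 in LFD mice, 7.82, 7.96 and 8.51 in HFD mice, and 7.17 and 8.68 in ob/ob mice. The groups overlapped, the lowest value was that of LFD replicate 2, and ob/ob replicate 1 lay below 2 of the LFD mice. Compared with LFD, the difference was 0.68 ± 0.47 in HFD mice (limma, adjusted p = 0.423) and 0.50 ± 0.52 in ob/ob mice (limma, adjusted p = 0.594). Without LFD replicate 2, the mouse with the high lymphocyte mean, these were 0.25 and 0.07. The latter was -0.25 without ob/ob replicate 2 and 1.25 without ob/ob replicate 1.

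Of the SNAIL genes, Snai1, an early repressor of E-cadherin in EMT, had values of 2.80, 2.86 and 3.10 in LFD mice, 2.76, 3.78 and 4.01 in HFD mice, and 3.08 and 4.41 in ob/ob mice. HFD replicate 2, HFD replicate 3 and ob/ob replicate 2 lay above all LFD mice, whereas HFD replicate 1 was the lowest of all. Against LFD, Snai1 differed by 0.60 ± 0.44 in HFD mice (limma, adjusted p = 0.449) and 0.83 ± 0.49 in ob/ob mice (limma, adjusted p = 0.357). The difference in HFD mice was 0.98 without HFD replicate 1 and 0.35 without HFD replicate 3, and that in ob/ob mice was 1.497 without ob/ob replicate 1 and 0.16 without ob/ob replicate 2.

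Snai2, which encodes SLUG, had values of 2.67, 2.34 and 2.19 in LFD mice, 2.67, 2.76 and 3.43 in HFD mice, and 3.09 and 3.24 in ob/ob mice. Both ob/ob mice lay above all LFD mice. Their SD was 0.11 (n = 2), for a gene with a mean rlog of 2.80, where differences can be shrunk. The difference from LFD was 0.55 ± 0.29 in HFD mice (limma, adjusted p = 0.310) and 0.77 ± 0.32 in ob/ob mice (limma, adjusted p = 0.257), and the former was 0.32 without HFD replicate 3.

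Twist1, a helix-loop-helix factor of mesoderm and of EMT, had values of 3.15, 3.05 and 2.77 in LFD mice, 3.17, 4.54 and 3.89 in HFD mice, and 3.46 and 5.6 in ob/ob mice. Every obese mouse lay above every LFD mouse, HFD replicate 1 (3.17) only just above LFD replicate 1 (3.15). Compared with LFD, Twist1 differed by 0.88 ± 0.56 in HFD mice (limma, adjusted p = 0.388) and 1.54 ± 0.62 in ob/ob mice (limma, adjusted p = 0.248), and the former was 0.54 without HFD replicate 2. In ob/ob mice it was 0.47 without ob/ob replicate 2 and 2.62 without ob/ob replicate 1.

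Prrx1 encodes a homeobox factor of mesenchymal cells, which in the pancreas also takes part in duct regeneration. It had values of 6.83, 6.83 and 6.19 in LFD mice, 7.38, 7.50 and 7.75 in HFD mice, and 7.28 and 8.49 in ob/ob mice. As for Zeb2, every obese mouse lay above every LFD mouse, and HFD mice were close to each other (SD 0.19, n = 3). Its difference from LFD was 0.93 ± 0.33 in HFD mice (limma, adjusted p = 0.211), 1.27 ± 0.37 in ob/ob mice (limma, adjusted p = 0.200) and 1.10 ± 0.30 for both models together (limma, adjusted p = 0.112). The difference in ob/ob mice was 0.66 without ob/ob replicate 2, and its unadjusted p was no longer under 0.05.

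Vim, the filament protein of mesenchymal and myeloid cells, had values of 10.40, 10.43 and 10.16 in LFD mice, 10.37, 11.42 and 12.42 in HFD mice, and 11.25 and 12.87 in ob/ob mice. HFD replicate 1 lay within the LFD range, and the other obese mice lay above it. The LFD mice differed little (SD 0.15, n = 3), whereas the SD was 1.03 in HFD mice (n = 3) and 1.14 in ob/ob mice (n = 2). Against LFD, Vim differed by 1.07 ± 0.54 in HFD mice (limma, adjusted p = 0.296) and 1.73 ± 0.60 in ob/ob mice (limma, adjusted p = 0.222), or 2.10- and 3.33-fold. Without HFD replicate 1 the difference in HFD mice was 1.59 (limma, adjusted p = 0.0467), and without HFD replicate 3 it was 0.56 (limma, adjusted p = 0.666). In ob/ob mice it was 0.93 without ob/ob replicate 2.

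**Figure D2:**
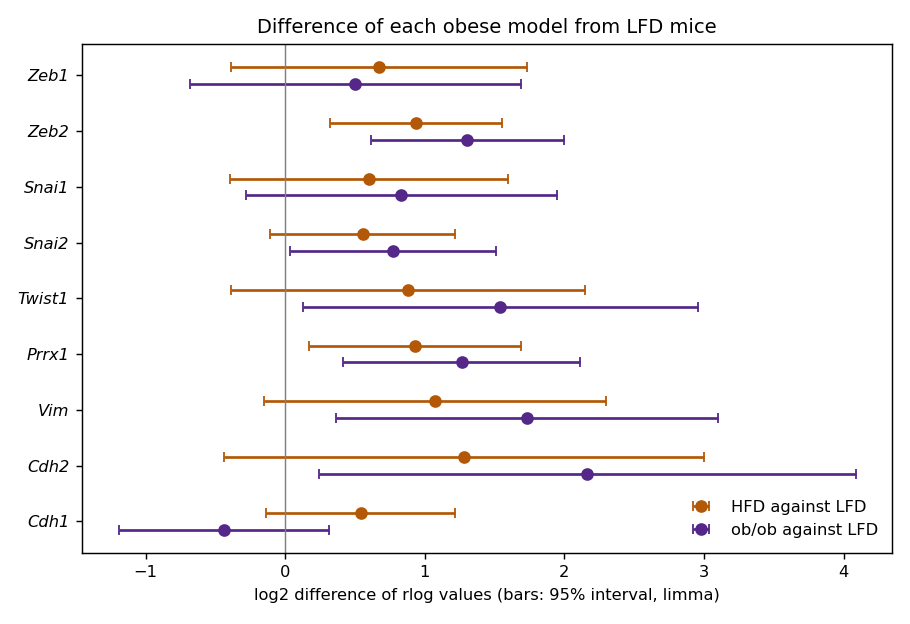
Difference of HFD and ob/ob mice from LFD mice in rlog value (log2) for each gene, with the 95% interval from limma as bars. The intervals of Zeb2 and Prrx1 lie above 0 in both models, and Cdh1 is the only gene of the 9 with means on opposite sides of 0.

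Of the cadherins, Cdh2 had values of 5.38, 5.98 and 5.21 in LFD mice, 5.41, 7.41 and 7.59 in HFD mice, and 6.33 and 9.04 in ob/ob mice. HFD replicate 1 lay within the LFD range and the other obese mice above it, and the range over the 8 mice, 3.83, was the widest of the 9 genes. Relative to LFD, Cdh2 differed by 1.28 ± 0.75 in HFD mice (limma, adjusted p = 0.358) and 2.16 ± 0.84 in ob/ob mice (limma, adjusted p = 0.241). Without ob/ob replicate 2 the latter was 0.81, and it was 3.51 without ob/ob replicate 1, whereas the former was 1.98 without HFD replicate 1.

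Cdh1 had values of 10.50, 10.45 and 10.34 in LFD mice, 10.58, 11.10 and 11.22 in HFD mice, and 10.56 and 9.42 in ob/ob mice. All HFD mice lay above all LFD mice, ob/ob replicate 1 lay just above the LFD mice, and ob/ob replicate 2 was the lowest of the 8. The Cdh1 difference from LFD was 0.54 ± 0.30 in HFD mice (limma, adjusted p = 0.329) and -0.44 ± 0.33 in ob/ob mice (limma, adjusted p = 0.463). Without ob/ob replicate 2 the latter was 0.13, and without ob/ob replicate 1 it was -1.01. Set against each other, ob/ob mice differed from HFD mice by -0.98 ± 0.33 (limma, adjusted p = 0.9996). Cdh1 was the 1 of 9 genes with an unadjusted p under 0.05 in that comparison, beside 1.63% of all genes that were lower, and 0 of 9 passed after adjustment beside 0% of all genes. The Cdh1 difference of ob/ob from HFD mice was -0.41 without ob/ob replicate 2 and -1.55 without ob/ob replicate 1.

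The difference of Cdh2 minus Cdh1 within a mouse is read here only between mice, since rlog values are not per length. It was -5.12, -4.47 and -5.12 in LFD mice, -5.17, -3.69 and -3.64 in HFD mice, and -4.22 and -0.38 in ob/ob mice, on the log2 scale. HFD replicate 1 matched the LFD mice, HFD replicates 2 and 3 and ob/ob replicate 1 lay 0.68 to 1.27 above the LFD mean, and ob/ob replicate 2 lay 4.52 above it. In HFD replicates 2 and 3 both cadherins were above their LFD values, whereas in ob/ob replicate 2 Cdh2 was above and Cdh1 below. HFD replicate 3 and ob/ob replicate 2 had similar acinar means, 13.08 and 13.39, while their Cdh1 values were 11.22 and 9.42. The mean of 26 genes of epithelial junctions and keratins also differed between these mice, at 9.30 and 7.77. The cause was not tested.

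**Figure D3:**
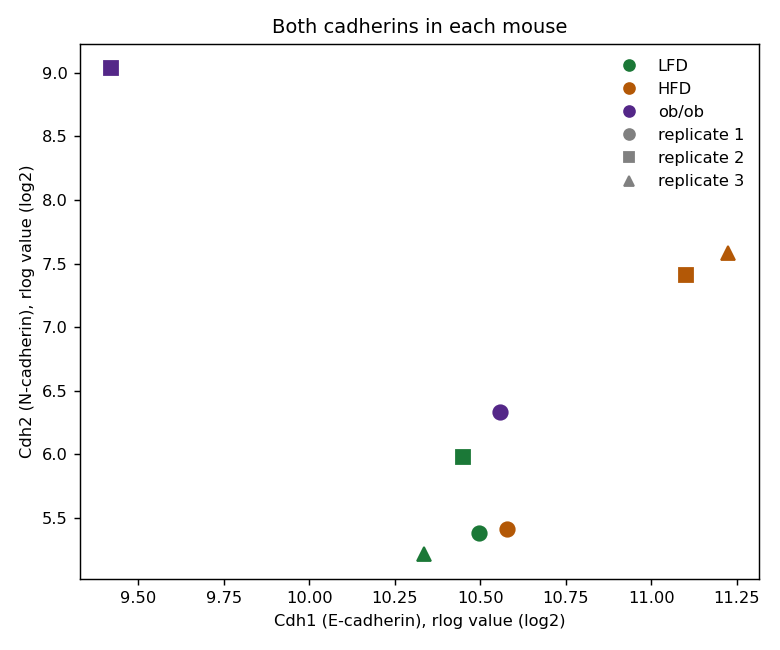
Cdh2 against Cdh1 in each mouse, both as rlog values (log2), with color for the group and the symbol for the replicate; neither axis starts at 0. The LFD mice and HFD replicate 1 lie together at the lower middle, HFD replicates 2 and 3 at the right, and ob/ob replicate 2 alone at the upper left, with Cdh2 at 9.04 and Cdh1 at 9.42.

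ob/ob replicate 2 had the highest value of the 8 mice in 7 of 9 genes, beside 21.6% of all genes, and HFD replicate 3 in Snai2 and Cdh1, beside 16.3% of all genes. The median of the 9 genes relative to the LFD mean was 1.71 in ob/ob replicate 2, 1.09 in HFD replicate 3, 0.86 in HFD replicate 2, 0.66 in ob/ob replicate 1 and 0.18 in HFD replicate 1. Over the 8 mice, Pearson's r between the 8 genes other than Cdh1 was 0.573 to 0.961 (28 pairs, median 0.838), with Vim and Cdh2 the closest pair. With Cdh1 it was -0.352 to 0.051 (8 pairs). These values describe 8 mice of 3 groups that differ in acinar RNA, and genes share these mice.

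HFD replicate 2, HFD replicate 3 and ob/ob replicate 2 had the highest medians of the 9 genes and the lowest acinar means, 14.98, 13.08 and 13.39. The order differed, since the highest median was that of ob/ob replicate 2 and the lowest acinar mean that of HFD replicate 3. HFD replicate 1 had Zeb2 and Prrx1 above all LFD mice at an acinar mean of 17.02. All 25 acinar markers had lower means in HFD and in ob/ob mice. The list means were 13.08 to 17.02 in HFD mice and 13.39 to 16.34 in ob/ob mice against 16.71 to 17.15 in LFD mice. In obese mice 5 of the 25 were lower at an unadjusted p under 0.05 in limma (median -2.0), beside 10.9% of all genes. Leaving out 1 mouse, this count was 13 without HFD replicate 1, 12 without ob/ob replicate 1, 4 without HFD replicate 3 and 0 without any of the other mice. In a limma fit with the acinar mean as a covariate, Zeb2 kept an unadjusted p under 0.05 in HFD mice (0.56 ± 0.21, adjusted p = 0.391) and in ob/ob mice (0.89 ± 0.23, adjusted p = 0.244). Vim in ob/ob mice was 0.65 ± 0.14 higher in that fit (limma, adjusted p = 0.176) and Prrx1 0.82 ± 0.33 (limma, adjusted p = 0.442). In HFD mice, the differences were 0.07 for Vim, -0.01 for Cdh2 and -0.08 for Snai1. Prrx1 in HFD mice (0.52) and Cdh2 (0.76), Twist1 (0.75) and Snai2 (0.47) in ob/ob mice no longer had an unadjusted p under 0.05 in that fit. Of all genes, 923 were higher in HFD mice and 967 in ob/ob mice at that threshold, against 1728 and 1751 without the covariate. For Cdh1 in the fit with the covariate, the difference of ob/ob from HFD mice was -0.97 ± 0.30 (limma, adjusted p = 0.482). HFD replicate 3 and ob/ob replicate 2, the obese mice of lowest acinar mean, were also left out, after the data were seen. The differences in HFD mice were then 0.75 for Zeb2 and 0.83 for Prrx1, against 0.94 and 0.93 with all mice. Those of the other genes in HFD mice were 0.32 to 0.89, against 0.54 to 1.28 with all mice. For the lone ob/ob mouse left, the differences were 0.90 for Zeb2 and 0.93 for Vim, against 1.30 and 1.73 with both ob/ob mice. They were 0.81 for Cdh2, 0.70 for Snai2, 0.66 for Prrx1 and 0.47 for Twist1, against 2.16, 0.77, 1.27 and 1.54. For Snai1, Cdh1 and Zeb1 they were 0.16, 0.13 and -0.25, against 0.83, -0.44 and 0.50.

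Markers of stromal and myeloid cells were also higher in the obese mice. At an unadjusted p under 0.05 in limma, 13 of 20 fibroblast and stellate markers were higher and 1 lower in obese than in LFD mice (median 1.05), and 17 of 18 myeloid markers were higher (median 1.38). Of all genes, 14.5% were higher and 10.9% lower. The fibroblast list mean was 8.75 to 9.19 in LFD mice, 9.45 to 10.07 in HFD mice and 9.81 to 10.42 in ob/ob mice. The myeloid list mean was 7.87 to 8.37, 8.75 to 9.76 and 9.42 to 10.01. Neither list mean overlapped between LFD and obese mice. This was not particular to these lists. It also held for the means of the EMT transcription factors and of the mesenchymal effectors, other EMT-linked factors and corepressors described below. The part of stromal and myeloid cells in the values of Zeb2, Vim, Prrx1 and Twist1, which these cells express, was not tested. Endothelial markers had 0 of 14 genes with an unadjusted p under 0.05 in limma in obese mice (median 0.08), as did lymphocyte markers with 0 of 11 (median 0.07).

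Around these genes, the products of mesenchymal cells differed broadly. Of 27 mesenchymal effector genes, 24 were higher in obese than in LFD mice at an unadjusted p under 0.05 in limma, 0 were lower and 0 passed after adjustment, with a median difference of 1.52. For comparison, 14.5% of all genes were higher and 10.9% lower. The counts higher were 19 in HFD mice and 21 in ob/ob mice, beside 11.5% and 11.6% of all genes. In both models 0 were lower, beside 8.35% and 7.18% of all genes. Without LFD replicate 3, which was the lowest of the 8 mice in 23 of the 27 genes, the count in obese mice was 16, that in HFD mice 11 and that in ob/ob mice 13. The count in HFD mice was 10 without HFD replicate 3 and 12 without HFD replicate 2, and that in ob/ob mice was 11 without ob/ob replicate 2. Col1a1, the main fibrillar collagen chain, was 9.79, 9.28 and 8.89 in LFD mice, 10.63, 11.28 and 12.53 in HFD mice, and 11.29 and 11.72 in ob/ob mice. S100a4, a calcium-binding protein of fibroblasts and macrophages, was 2.15 ± 0.48 higher (limma, adjusted p = 0.097), and Dcn, a proteoglycan of resting fibroblasts, differed by -0.01 ± 0.27 (limma, adjusted p = 0.984). Of the 27 genes, 7 are also in the fibroblast list.

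Among 14 other EMT-linked transcription factors, 3 were higher and 1 lower in obese mice (unadjusted p under 0.05 in limma, median 0.29), beside 14.5% and 10.9% of all genes. Prrx2, the paralogue of Prrx1, was 3.20, 3.59 and 3.58 in LFD mice, 4.42, 6.23 and 6.28 in HFD mice, and 4.31 and 6.31 in ob/ob mice. All obese mice lay above all LFD mice, as for 9.4% of all genes. Its difference in obese mice was 2.02 ± 0.56 (limma, adjusted p = 0.113), and that of Runx1, a Runt-domain factor, was 1.44 ± 0.39 (limma, adjusted p = 0.1096). Snai3, the third SNAIL gene, differed the other way, by -0.82 ± 0.32 (limma, adjusted p = 0.168). Of 13 genes for the corepressors of ZEB and SNAIL and their partners, 3 were higher and 0 lower (median 0.22), beside the same shares of all genes. Lox and Loxl2, lysyl oxidases that crosslink collagen and of which Loxl2 also binds SNAIL1, were 2.14 ± 0.30 (limma, adjusted p = 0.0787) and 1.92 ± 0.46 higher (limma, adjusted p = 0.107).

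Among 20 genes of TGF-beta signaling and other inducers of EMT, 6 were higher and 1 lower in obese mice at an unadjusted p under 0.05 in limma (median 0.32), beside 14.5% and 10.9% of all genes. Hgf, the ligand of the MET receptor, was 1.19 ± 0.31 higher (limma, adjusted p = 0.107), Tgfb3, a TGF-beta ligand, was 1.11 ± 0.33 higher (limma, adjusted p = 0.119), and Smad6, an inhibitor of BMP signaling, differed by -0.79 ± 0.30 (limma, adjusted p = 0.157). Of 10 other cadherins, 3 were higher and 0 lower (median 0.56), beside the same shares of all genes. Cdh17, a cadherin of gut epithelium, was 7.63, 8.42 and 7.53 in LFD mice, 8.36, 10.66 and 11.34 in HFD mice, and 8.64 and 8.201 in ob/ob mice, so that HFD replicates 2 and 3 were the highest, and HFD replicate 1 and ob/ob replicate 2 lay within the LFD range. Of 11 genes of the cadherin complex, 0 had an unadjusted p under 0.05 in obese mice in limma (median 0.11), with Vcl, which links the complex to actin, at 0.79 ± 0.36 (limma, adjusted p = 0.2095). Of 8 other filament genes, 1 was higher and 0 lower (median 0.28), namely Lmnb1, the nuclear lamin B1, at 1.00 ± 0.33 (limma, adjusted p = 0.135).

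Of 26 genes of epithelial junctions and keratins, 6 lay higher in HFD mice and 0 lay lower at an unadjusted p under 0.05 in limma (median 0.46), beside 11.5% and 8.35% of all genes. In ob/ob mice 0 of them lay higher and 8 below LFD mice (median -0.48), beside 11.6% and 7.18% of all genes. ob/ob replicate 2 was the lowest of the 8 mice in 21 of the 26 genes, beside 14.3% of all genes, and HFD replicate 3 was the highest in 13 of 26, beside 16.3% of all genes. Without ob/ob replicate 2, the median difference of the 26 genes in ob/ob mice was -0.11. The count higher in HFD mice was 12 without HFD replicate 1 and 1 to 3 without any other LFD or HFD mouse. In these fits 2984 and 909 to 1389 of all genes were higher in HFD mice, against 1728 with all mice. Krt7, a ductal keratin, was 8.92, 9.74 and 8.89 in LFD mice, 9.78, 11.52 and 11.63 in HFD mice, and 9.87 and 9.39 in ob/ob mice. Llgl2, a polarity gene, was 8.62, 8.77 and 8.83 in LFD mice, 8.196, 8.32 and 7.92 in HFD mice, and 8.30 and 6.68 in ob/ob mice.

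Of 14 transcription and splicing factors that uphold the epithelial state, 1 was higher and 4 lower in obese mice (unadjusted p under 0.05 in limma, median -0.66), beside 14.5% and 10.9% of all genes. In ob/ob mice 5 were lower and 0 higher (median -1.01), beside 7.18% and 11.6% of all genes. In HFD mice 1 was higher and 0 were lower (median -0.29). The count lower in obese mice was 7 without HFD replicate 1, 3 without HFD replicate 2 and 2 without HFD replicate 3 or any LFD mouse. In these fits 2636, 1120 and 767 to 1337 of all genes were lower in obese mice, against 1639 with all mice. ob/ob replicate 2 was the lowest of the 8 mice in 11 of the 14, beside 14.3% of all genes. Without it, the median difference of the 14 in ob/ob mice was -0.27. Esrp2, a splicing factor of epithelial cells, was 8.71, 8.80 and 8.41 in LFD mice, 8.39, 7.77 and 7.44 in HFD mice, and 7.96 and 6.46 in ob/ob mice. Every obese mouse lay below every LFD mouse, HFD replicate 1 (8.39) only just below LFD replicate 3 (8.41). Ovol1, a zinc finger repressor of mesenchymal genes, was 6.04, 6.01 and 6.18 in LFD mice, 5.46, 4.92 and 5.70 in HFD mice, and 5.22 and 3.66 in ob/ob mice, with the same separation. Both were named for the largest negative differences of the list, and the share of all genes so separated was not counted. Klf5, a factor of proliferating epithelium, was 1.37 ± 0.37 higher in HFD mice (limma, adjusted p = 0.180) and 0.21 ± 0.41 higher in ob/ob mice (limma, adjusted p = 0.789).

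**Figure D4:**
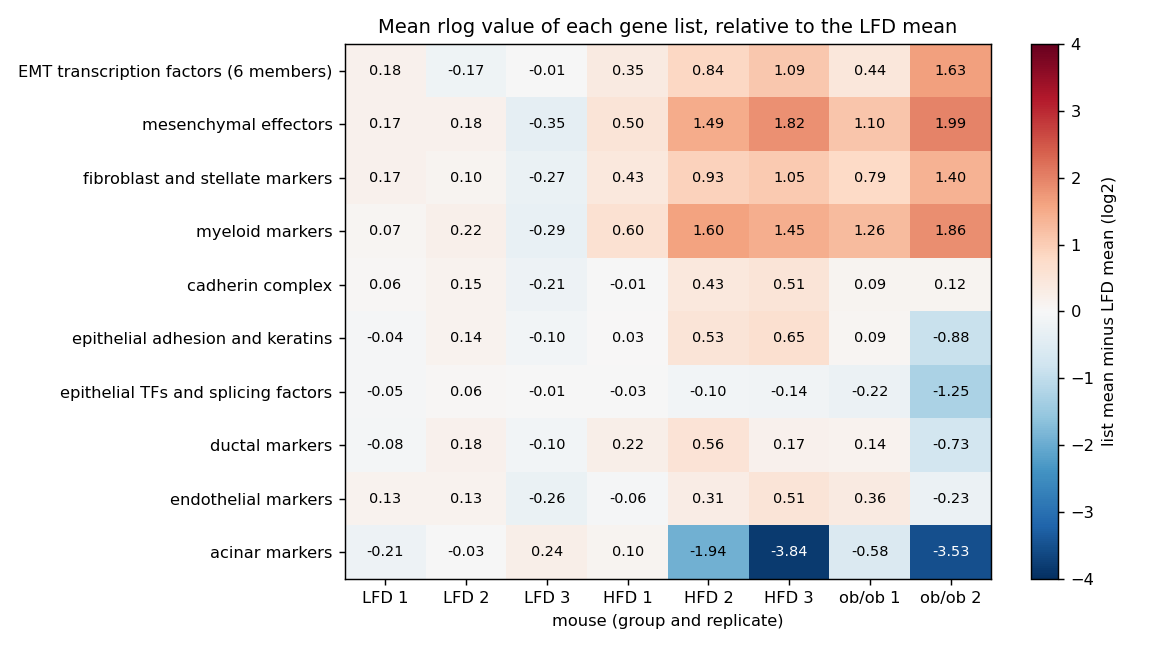
Mean rlog value of each gene list in each mouse minus the mean of the LFD mice (log2), with 1 row per list and 1 column per mouse; red is above and blue below the LFD mean. The EMT transcription factors, mesenchymal effectors, fibroblast and myeloid markers are above it in all 5 obese mice, the acinar markers are at -3.84 in HFD replicate 3 and -3.53 in ob/ob replicate 2, and the epithelial lists are lowest in ob/ob replicate 2.

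The genes most like each of the 9 over the 8 mice, among 11827 genes with a mean rlog of at least 5, were named by Pearson's r as a description. For Zeb2 they were Ubash3b (r = 0.991), Dclre1c (0.971) and Hgf (0.971), for Prrx1 Pdgfc (0.987), Nisch (0.985) and Rest (0.978), and for Twist1 Psip1 (0.991), Gprc5b (0.990) and Wisp2 (0.987). For Vim they were Synpo (0.997), Arhgap11a (0.996) and Ltbp2 (0.993), and for Cdh2 Cdk6 (0.994), Vps18 (0.991) and Iws1 (0.990). For Snai1 they were Add1 (0.991), Cspg4 (0.990) and Arhgap22 (0.990), for Snai2 Tab2 (0.976), Neurl1b (0.9745) and Mpp1 (0.973), and for Zeb1 Recql (0.934), Nedd4l (0.930) and Zfp160 (0.929). For Cdh1 they were Fam83h (0.972), Erbb3 (0.971) and Slc22a23 (0.968), of which Erbb3 encodes a receptor kinase of epithelial cells. So many genes were searched over 8 mice that a high r says little by itself, and the lowest of these leading values was that of Zeb1.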

How the data were processed

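RNA-Seq was performed on pancreas tissue of 8 mice, and mice were grouped by their labels. The authors quantified transcripts of Gencode M18 (GRCm38.p6) with Salmon 0.11.3, summarized them per gene with tximport, and deposited rlog values of DESeq2 1.22.2, which are on a log2 scale, for 15047 gene symbols. The gene filter is not given in the sources used here. Salmon splits reads between similar transcripts, so paralogs such as Zeb1 and Zeb2 or Snai1 and Snai2 carry an uncertainty not shown. Counts and depth were not used here, so no counting error is given.

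Group means of these values were fitted over all 8 mice in limma 3.58.1 (R 4.3.3), using a trend in the empirical Bayes step and Benjamini-Hochberg adjustment over all genes. This step was checked on simulated data with independent noise for each gene and 200 genes changed by design. Such data lack the differences between mice that many genes share. The check therefore concerns the working of the fit and not its error in these mice. Values after ± are standard errors unless named SD. The labels do not say whether the replicate numbers pair the mice. Gencode M21, also on GRCm38, gave the gene positions.

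The genes and the lists (mesenchymal effectors, other EMT factors, corepressors, TGF-beta and other inducers, epithelial factors, epithelial adhesion, cadherin complex, other cadherins, filaments, and cell type markers) were chosen with earlier results of these data known. From each list, up to 2 genes with the largest difference each way between obese and LFD mice could be named, and for likeness the 3 genes with the highest r. Other settings were a variance with no trend, fits of only the groups compared, a mean rlog of at least 5, centring, quantile normalization, the replicate number as a block, the acinar mean as a covariate and leaving out mice.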

Additional observations from a re-analysis of the deposited data

How the results depend on the processing

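Of 555 values of single genes of the 9 under other settings, 523 kept their direction and their side of an adjusted p of 0.05, 8 came under it, all without HFD replicate 1 or without ob/ob replicate 1, and 24 changed sign. The sign changed with the acinar mean as a covariate for Snai1 (-0.079) and Cdh2 (-0.013) in HFD mice and Zeb1 (-0.09) in ob/ob mice, and with each mouse centred for Cdh1 in obese mice (-0.035). Without ob/ob replicate 2 it changed for Zeb1 (-0.25) and Cdh1 (0.13) in ob/ob mice and Cdh2 against HFD (-0.468), which were 1.253, -1.007 and 2.234 without ob/ob replicate 1, and without the obese mouse of lowest acinar mean in each model, chosen after seeing the data, for the same 3 (-0.25, 0.13 and -0.077). Of ob/ob against HFD, where no difference passed, the sign also changed without ob/ob replicate 2 for Zeb2 (-0.034, 0.769 without ob/ob replicate 1), Snai1 (-0.434, 0.9), Twist1 (-0.412, 1.736), Prrx1 (-0.271, 0.945) and Vim (-0.147, 1.471), and for Snai1 without HFD replicate 1 (-0.146). Without the obese mice of lowest acinar mean it changed there for Snai1 (-0.188), Twist1 (-0.401) and Prrx1 (-0.167). Zeb1 was -0.925 to 0.578 leaving out mice, above 0 without ob/ob replicate 1 or HFD replicate 3 (0.032), and 0.034 with the replicate block. For Cdh1 in obese mice it was -0.013 without HFD replicate 3 and -0.233 without ob/ob replicate 1, against 0.335 without ob/ob replicate 2. Leaving out each mouse in turn, the genes with an adjusted p under 0.05 (limma, 0 with all mice) were 0 to 2 of 9 for HFD and 0 to 4 for obese against LFD. At an unadjusted p under 0.05 they were 1 to 6 for HFD, 1 to 8 for ob/ob and 2 to 7 for obese against LFD, and 0 to 5 for ob/ob against HFD. With the acinar mean these counts were 1, 3, 3 and 2 in that order, without the obese mice of lowest acinar mean 2, 2, 3 and 0, and with only the groups compared 4 for HFD. With the replicate block the count was 4 of 9 for HFD, against 2 without it. Mice with the same number had correlations of their deviations from -0.281 to 0.592. These cannot decide whether the mice were paired, since the deviations of 2 ob/ob mice mirror each other and the groups are small. Epithelial adhesion genes higher in HFD mice (6 of 26) were 1 to 12 leaving out mice, 3 with the acinar mean and 3 without the obese mice of lowest acinar mean, and those lower in ob/ob mice (8 of 26) were 0 to 12, 1 and 0, and 5 with quantile normalization. Epithelial transcription and splicing factors lower in ob/ob mice (5 of 14) were 0 to 9, 2 and 0, and 8 with the replicate block. The counts of mesenchymal effectors, fibroblast and myeloid markers in obese mice stayed within 1.5 times under all these settings, whereas those of effectors in HFD and ob/ob mice were 10 to 24 and 11 to 24 leaving out mice. In the smaller lists, the counts higher in obese mice leaving out mice were 2 to 5 for other EMT factors and for corepressors, 3 to 10 for inducers, 1 to 7 for other cadherins, 0 to 4 for the cadherin complex and 0 to 2 for filaments. Without 1 ob/ob mouse, the lone one is assumed to vary like the other groups. Leaving out 1 LFD or HFD mouse also changed the counts of all genes at an unadjusted p under 0.05. Those higher in HFD mice were 909 to 2984, against 1728 with all mice. Those lower in ob/ob mice were 504 to 1757, against 1080 with all mice. The cause of these changes was not tested. The precision rests on 2 or 3 mice a group, and rlog shrinks differences where reads are few.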

Other observations

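Other cells of the pancreas differed as well. Of 18 islet genes, 9 were higher in ob/ob than in LFD mice at an unadjusted p under 0.05 in limma (median 0.78), and 0 in HFD mice (median -0.45), beside 11.6% and 11.5% of all genes. The former count was 3 without ob/ob replicate 1, 10 without ob/ob replicate 2, where the lone ob/ob mouse is assumed to vary like the other groups, and 8 or 9 without any other mouse. Chgb, a granin of secretory granules, was 7.08, 8.01 and 6.73 in LFD mice, 6.81, 7.43 and 8.07 in HFD mice, and 9.52 and 9.17 in ob/ob mice, and Iapp, the amyloid peptide of beta cells, was 1.62 ± 0.44 higher in ob/ob mice (limma, adjusted p = 0.190). Of 14 ductal markers, 6 were higher and 0 lower in HFD mice (median 0.63; 3 higher without HFD replicate 2), and 1 was higher and 2 lower in ob/ob mice (median -0.22). Of 12 adipocyte and mesothelial markers, 1 was higher and 3 were lower in obese mice (median 0.04), beside 14.5% and 10.9% of all genes. Their differences were above 0 for 7 and below 0 for 5. Cfd, the adipsin of fat cells, was at -1.91 ± 0.37 (limma, adjusted p = 0.0886). Lep, the leptin gene of fat cells, went the other way, at 1.25 ± 0.30 (limma, adjusted p = 0.107). Of 6 neural markers, 2 were higher in obese mice (median 0.18), among them Ncam1, which mesenchymal cells also express, at 1.79 ± 0.57 (limma, adjusted p = 0.130).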
